A study of Mus musculus with 24 samples.

Results

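The difference between a mouse line bred for high freezing and a line bred for low freezing was read as 1 value per transcript, averaged over amygdala and hippocampus. All 24 of the 24 arrays entered: 6 arrays of each line in each tissue, all from male mice, with line 24 the low freezing line (arrays 1 to 6 of each tissue) and line 25 the high freezing line (arrays 7 to 12). Of the 45101 probe sets, 64 array controls were left out and 45037 were tested, a probe set being a group of probes that reads 1 transcript or a stretch of it. A model of the 4 group means was fitted, and the contrast was the mean of the amygdala difference and the hippocampus difference, each as high line minus low line. Total RNA was measured. The labels give no age, no treatment or training of the mice, no founding strain, and no word on whether RNA was pooled or whether the amygdala and the hippocampus arrays came from the same animals. Each line is a single breeding line, so a p-value here compares these lines only, against the variation among their own arrays, and selection and drift cannot be told apart. The array numbers follow the lines in both tissues, and the labels do not say what the numbers stand for. Anything that went with the numbering cannot be told apart from line.

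In contextual fear conditioning a rodent learns to link a chamber with foot shock and later freezes, that is, stays motionless, when returned to it. The hippocampus is known for encoding the context, and the amygdala for joining that context to the shock and driving the defensive response through its outputs. Breeding for a behaviour changes the frequency of alleles across the genome, and the title of the series asks what such selection did to behaviour and to gene expression.

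Values are log2(signal + 16), where the signal is the deposited array intensity. A difference of 1 on this scale is a doubling for bright probe sets and understates the change of dim ones. Calls were made in limma, at a p under 0.05 after Benjamini-Hochberg adjustment over all probe sets tested. In bulk tissue, fewer cells of a type and less RNA per cell cannot be told apart.

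Array medians ran from 43.3 to 55.7 in linear signal. The tissue labels matched their markers: the summed signal of 15 amygdala markers was 10340 to 11970 on amygdala arrays and 3879 to 4340 on hippocampus arrays, and that of 17 hippocampus markers was 6439 to 7885 and 12760 to 15480. The lowest ratios of the 5′ to the 3′ actin control were on high line amygdala arrays 7 and 8, at 0.301 and 0.339 against at least 0.497 on every other array. The 18S ribosomal RNA control did not overlap between lines in hippocampus, where it was 5859 to 7093 on low line arrays and 3600 to 5800 on high line arrays. Hippocampus array 7, of the high line, had the highest array median and stood apart on that tissue's first principal component, with a score of 80.7 against -29.3 to 33.0 for the others. The calls with and without these arrays, and with the controls as covariates, stand beside the counts they touch.

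The averaged contrast called 107 probe sets (0.238% of those tested), 58 of them higher in the high line (0.129%) and 49 lower (0.109%). They read 80 genes, 74 of which carry a name other than a clone or gene-model name: 39 genes were higher and 36 lower, with Ildr2 in both counts through different probe sets. The named genes with the largest differences were Prune2, Cd99l2, Cap1 and Atxn1 among the lower ones and Rpgrip1, Rgcc, Camk2n1 and Efhd2 among the higher ones. Most calls were small: 13 of 107 exceeded 1 on the log2 scale, the median size was 0.59 and the smallest 0.22. At an unadjusted p under 0.05 the contrast held 3976 probe sets (8.83%).

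The number of calls changed with the arrays and covariates used. Without amygdala arrays 7 and 8 there were 62 calls, 56 of them among the 107, and with the actin ratio as a covariate there were 63, 59 of them among the 107. With the 18S control as a covariate the count was 107, with 98 in common, and without hippocampus array 7 it was 94, with 82 in common. Leaving out each array in turn gave 72 to 114 calls. Averaging the tissues per array number, which leaves 12 values, gave 34 calls, 29 of them among the 107. With a single array left out, the higher calls fell furthest, from 58 to 34 without high line amygdala array 8. They were 36 without low line amygdala array 5 and 38 without high line amygdala array 7. Without high line amygdala array 12 or low line hippocampus array 4 there were 37.

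The 8 named genes with the largest differences come first, beginning with those that were lower in the high line. Prune2 encodes a protein with a BNIP2 and CRAL-TRIO homology domain that is abundant in the nervous system. Its amygdala arrays read 8.16, 9.80 and 10.14 (lowest, median and highest) in the low line and 5.46, 5.90 and 8.53 in the high line. Its hippocampus arrays read 8.54, 9.51 and 9.87 in the low line and 5.27, 5.81 and 9.20 in the high line. In each tissue 2 high line arrays stood above the other 4: arrays 8 (8.53) and 11 (7.97) in amygdala and arrays 9 (9.20) and 7 (7.52) in hippocampus, so the numbers were not the same in both tissues. Of these, array 8 in amygdala and array 9 in hippocampus entered the low line range, and in amygdala the overlap rests also on low line array 4, at 8.16 where the other low line arrays were at 9.50 to 10.15. The averaged difference was -2.94 ± 0.44 (SE; adjusted p = 0.00298), a 7.66-fold change on the log2(signal + 16) scale.

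Cd99l2 encodes a membrane glycoprotein related to CD99, which takes part in the passage of white blood cells through vessel walls. The low line was tight in both tissues, at 8.33, 8.75 and 8.85 in amygdala and 8.15, 8.26 and 8.37 in hippocampus. The high line was lower and wider, at 6.41, 6.60 and 8.77 in amygdala and 5.57, 6.24 and 7.51 in hippocampus. The lines did not overlap in hippocampus, and in amygdala a single high line array, number 11, reached the low line range. Averaged over the tissues it differed by -1.75 ± 0.23 (SE; adjusted p = 0.00112).

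Cap1, the cyclase-associated protein that binds actin monomers and speeds filament turnover, had the low line arrays above the high line arrays throughout. Amygdala arrays were at 9.83, 10.27 and 10.55 in the low line and 6.74, 8.73 and 9.26 in the high line. Hippocampus arrays were at 10.02, 10.15 and 10.36 and 8.75, 9.17 and 9.72. The lowest amygdala value belongs to array 7, one of the arrays with a low actin ratio, and the groups were also apart without it. The contrast gave -1.30 ± 0.20 (SE; adjusted p = 0.00331), with -1.67 in amygdala and -0.92 in hippocampus.

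Atxn1 encodes ataxin-1, a transcriptional regulator whose expanded polyglutamine form causes a spinocerebellar ataxia. Amygdala arrays were at 8.05, 8.44 and 8.73 in the low line and 6.49, 7.10 and 8.01 in the high line, which did not overlap. Hippocampus arrays were at 7.89, 8.27 and 8.64 and 6.52, 6.89 and 8.09, where arrays 11 and 8 of the high line lay near the low line and array 11 was inside its range. On average the lines differed by -1.18 ± 0.19 (SE; adjusted p = 0.00395).

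Among the genes that were higher in the high line, Rpgrip1 encodes a scaffold of the connecting cilium of photoreceptors. Its amygdala arrays were at 6.98, 9.47 and 10.03 in the low line and 10.39, 10.59 and 10.65 in the high line. Its hippocampus arrays were at 6.92, 8.32 and 8.95 and 9.70, 9.95 and 10.09. The high line lay above the low line without overlap in both tissues and its arrays were nearly level with each other, whereas the low line arrays ran over a wide range. The averaged difference was 1.70 ± 0.28 (SE; adjusted p = 0.00605).

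Rgcc, a regulator of the cell cycle first described as a response gene to complement, was at 6.64, 7.30 and 8.58 in low line amygdala and 8.60, 9.08 and 9.35 in high line amygdala. In hippocampus it was at 6.45, 8.26 and 8.72 in the low line and 8.50, 9.54 and 9.59 in the high line. The amygdala groups were just apart, and the hippocampus groups overlapped through array 7 of the high line (8.50), one of the arrays in doubt. The contrast came to 1.52 ± 0.27 (SE; adjusted p = 0.00897).

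Camk2n1 encodes an inhibitor of calcium/calmodulin-dependent protein kinase II, a kinase central to synaptic plasticity. One of its probe sets was at 6.65, 6.96 and 8.63 in low line amygdala and 8.56, 8.78 and 9.15 in high line amygdala. The same probe set was at 5.78, 6.90 and 8.03 in low line hippocampus and 7.48, 7.99 and 8.27 in high line hippocampus. The lines overlapped in both tissues, and the low line held arrays at both ends of its range. Over both tissues the difference was 1.20 ± 0.25 (SE; adjusted p = 0.0391), and the call was lost in 21 of 36 alternative analyses, with the adjusted p reaching 0.117. The other probe set of the gene, which is much brighter, was at -0.19.

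Efhd2 encodes swiprosin-1, a calcium-binding protein that acts on the actin cytoskeleton. Its amygdala arrays were at 9.67, 10.92 and 11.82 in the low line and 11.74, 11.95 and 12.10 in the high line. In hippocampus the low line was at 9.12, 10.15 and 11.62 and the high line at 11.03, 11.49 and 11.76. The low line was spread over more than 2 log2 units in each tissue and overlapped the high line in both. The mean of the tissue differences was 1.19 ± 0.26 (SE; adjusted p = 0.0481), close to the threshold, and the call was lost in 27 of 36 alternative analyses, with the adjusted p reaching 0.13.

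**Figure D1:**
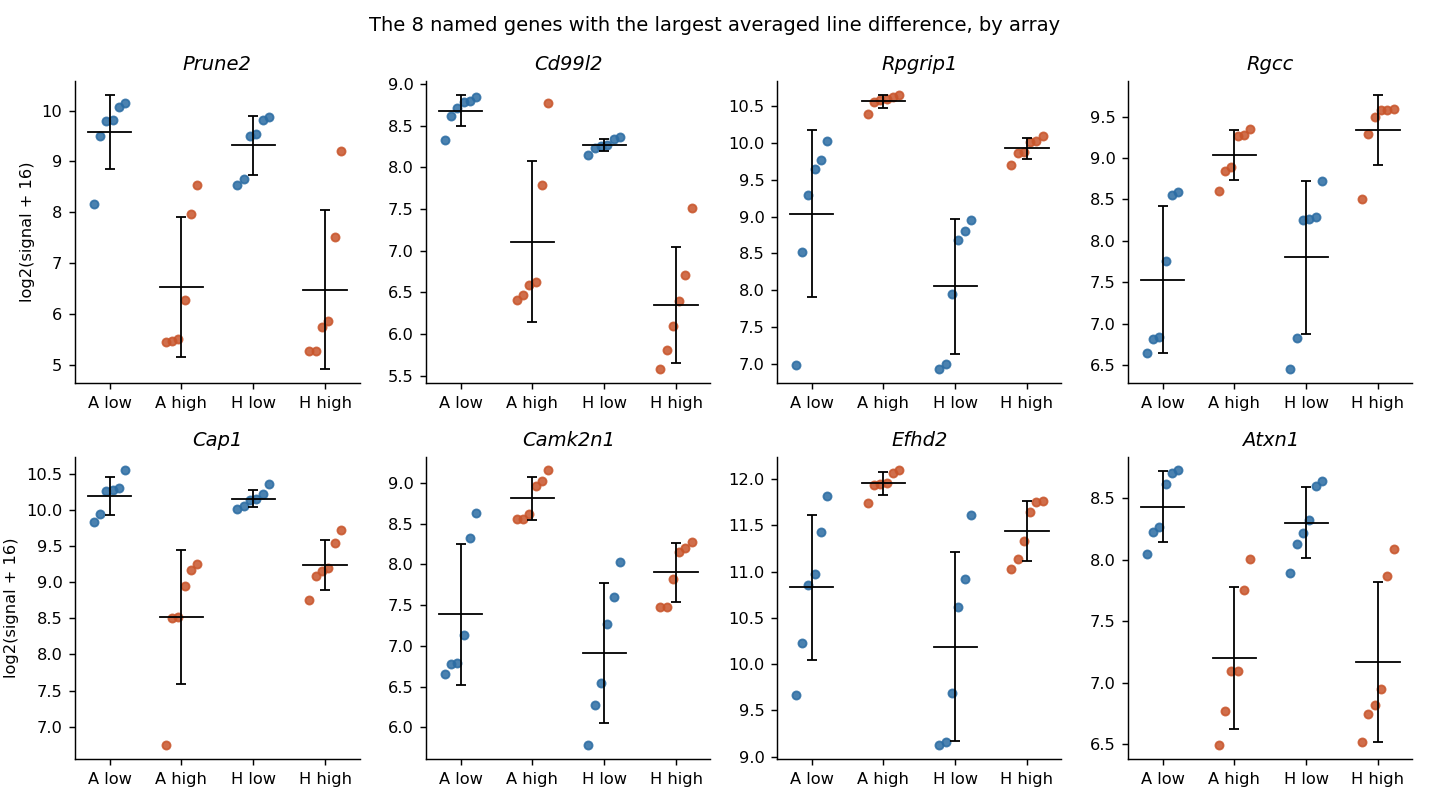
Each panel shows 1 gene, the y axis is log2(signal + 16), and points are single arrays of the low line (blue) and the high line (red) in amygdala (A) and hippocampus (H), with the group mean and 1 SD over 6 arrays in black. In Prune2, Cd99l2, Cap1 and Atxn1 the high line is lower and wider than the low line, and in Rpgrip1, Rgcc, Camk2n1 and Efhd2 the high line is higher and narrower.

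The other named genes changed by less. Among enzymes and secreted or membrane proteins, Pam, which amidates neuropeptides such as oxytocin and neuropeptide Y, was higher by 1.08 ± 0.15 (SE; adjusted p = 0.00134). The difference was near equal in the tissues, at 1.13 in amygdala and 1.02 in hippocampus, and the hippocampus arrays were apart. Ang, the secreted ribonuclease angiogenin, was higher by 1.05 ± 0.15 (SE; adjusted p = 0.00134). Ece1, which cleaves big endothelin to the active peptide, was higher by 0.76 on a dim probe set. Pigv, a mannosyltransferase of glycosylphosphatidylinositol anchor synthesis, was higher by 0.89. Fut10, a fucosyltransferase, was lower, with a difference of -0.71, as were Shisa4, a membrane protein of the Shisa family (-0.68), and the cell adhesion molecule Cdh7 (-0.66). Of these, Fut10 lost its call in 26 of 35 alternative analyses, Shisa4 in 21 of 36, Ece1 in 17 of 35 and Cdh7 in 12 of 36, with adjusted p values reaching 0.183, 0.135, 0.103 and 0.154.

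Genes of signalling, protein turnover and trafficking were found in both directions. Ptp4a2, a protein tyrosine phosphatase, was lower, with a difference of -0.91 ± 0.16 (SE; adjusted p = 0.00761). Ppp1r3e, which directs protein phosphatase 1 to glycogen, was higher by 0.70. The ESCRT-I subunit Vps37c, which sorts cargo into multivesicular bodies, differed by -0.77, and Hps1, part of a complex for lysosome-related organelles, by -0.75. The ubiquitin chain elongation factor Ube4b differed by -0.71, on a dim probe set, and its call was lost in 22 of 35 alternative analyses (adjusted p up to 0.154).

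Among the rest of the 30 genes were some of the nucleus, of translation and of the cytoskeleton. Scmh1, a polycomb group protein, was higher by 0.98 ± 0.16 (SE; adjusted p = 0.00562), and Zmym5, a zinc finger protein, by 0.67. Mcm6, a subunit of the replicative helicase, was lower, with a difference of -0.76, and Urgcp, named as an up-regulator of cell proliferation, with -0.67. Eef1akmt1, a lysine methyltransferase acting on elongation factor 1 alpha, was higher by 0.71. Mrps15, of the small mitochondrial ribosomal subunit, was lower on a dim probe set, with a difference of -0.86 ± 0.11 (SE; adjusted p = 0.000491). Mzt1, a component of the gamma-tubulin ring complex, was higher by 0.81, Morn1, a MORN repeat protein, by 0.80, and Dcdc2b, a doublecortin domain protein, by 0.69. Tnnt2, the troponin T of heart muscle, was lower, with a difference of -0.69 on a probe set near the bottom of the signal range. The call was lost for Dcdc2b in 25 of 36 alternative analyses, for Tnnt2 in 23 of 35 and for Zmym5 in 8 of 36, with adjusted p values reaching 0.115, 0.134 and 0.109. A further 24 named genes were higher, by 0.24 to 0.64, and a further 21 were lower, with differences of -0.22 to -0.66.

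Most averaged calls were not called in a single tissue. In the fit of 24 arrays, the amygdala contrast called 6 probe sets (0.0133%) and the hippocampus contrast 51 (0.113%). Of the 107 averaged calls, 27 were among those of hippocampus, 6 among those of amygdala and 74 in neither. Fits of 12 arrays of 1 tissue called 1 probe set in amygdala and 10 in hippocampus. Of the 107, 6 were also called in the hippocampus fit alone (the probe set of Mrps15, both of Prpf19, and those of Cd99l2, Armh4 and 1700029H14Rik), none in the amygdala fit alone, and 101 in neither. These genes were named after their values were seen.

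Of the 107 calls, 105 had the same sign in both tissues, which the choice by the average favours, and 97 had an unadjusted p under 0.05 in each. The exceptions were Armh4, at 0.04 in amygdala and -0.71 in hippocampus, and 1700029H14Rik, at -0.04 and 1.25. The arrays of the lines were apart, with no overlap, in both tissues for 9 of 107 calls; over all probe sets the number was also 9 (0.02%). They were Cap1, Urgcp, Rpgrip1, Slc35f5, Supt16, Pkp2, Samd4, Il17d and 1 probe set without a single gene symbol, of which the 5 from Slc35f5 to Il17d are named here only because of this pattern. Slc35f5, a solute carrier, was lower, with differences of -0.42 in amygdala and -0.76 in hippocampus. Supt16, a subunit of the histone chaperone FACT, was lower at -0.36 and -0.47, and Pkp2, the desmosome protein plakophilin, at -0.40 and -0.19. Il17d, a cytokine of the interleukin-17 family, was higher at 0.51 and 0.60, and Samd4, an RNA-binding protein, at 0.35 and 0.51. Groups were apart in amygdala only for 20 calls (all probe sets apart in amygdala: 0.402%), in hippocampus only for 38 (all probe sets apart in hippocampus: 0.637%) and in neither for 40.

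**Figure D2:**
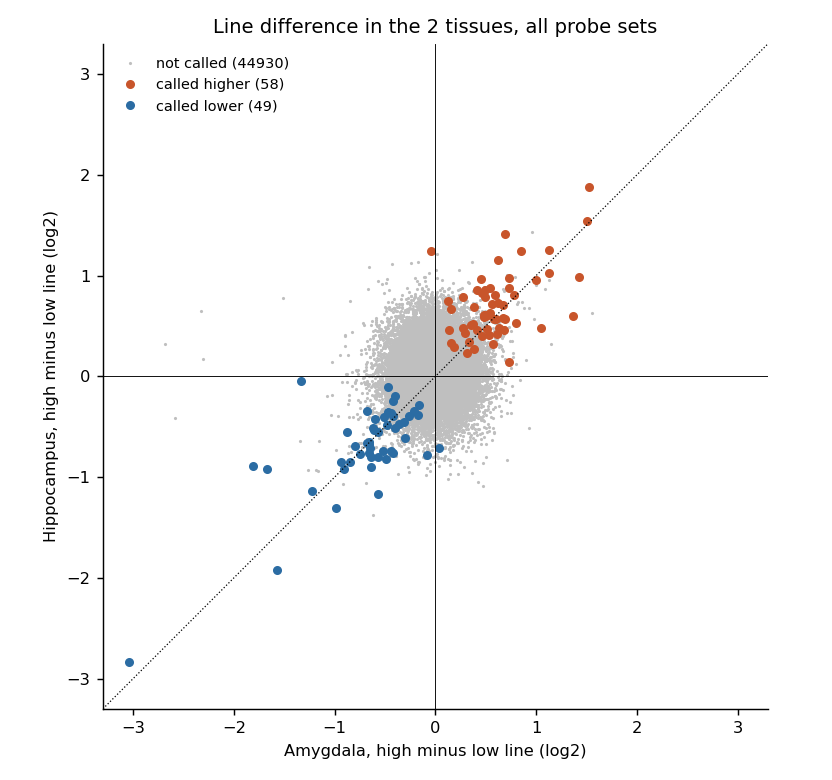
Each point is 1 probe set, with the high minus low line difference in amygdala on the x axis and in hippocampus on the y axis, both in log2. Called probe sets (58 higher in red, 49 lower in blue) lie mostly along the dotted line of equal differences, while the 44930 others form a round cloud at 0.

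The sign in a tissue that was not used for choosing is a check that the choice did not set, provided that the arrays of the tissues come from different animals, which was not tested. Of 715 probe sets with an unadjusted p under 0.01 in amygdala, 457 (63.9%) had the same sign in hippocampus. Of 1045 chosen in hippocampus at that level, 618 (59.1%) had the same sign in amygdala. Over all probe sets 51.3% had the same sign. The share rose with the stringency of the choice, to 74.8% of 103 and 66.9% of 181 at an unadjusted p under 0.001. At an unadjusted p under 0.05 in both tissues there were 381 probe sets of the same direction (0.846%; 194 higher, 187 lower) and 132 of opposite direction (0.293%). Across all probe sets, which are not independent replicates and share the arrays, the differences in the tissues correlated at r = 0.0836, and at 0.244 above the median signal.

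No probe set was called for a difference of the line effect between tissues (0.0%, limma, adjusted p of 0.156 at the lowest), and 3189 had an unadjusted p under 0.05 (7.08%). Among the 107, 16 had such an unadjusted p, with the line difference larger in hippocampus for 12 and in amygdala for 4. Among the 30 genes with the largest averaged differences, the lowest p values of this kind were those of Tnnt2, Mrps15 and Ang. Tnnt2 was at -1.33 in amygdala and -0.04 in hippocampus, where both lines lay at the bottom of the signal range, and the adjusted p of that difference was 0.299. Mrps15 differed by -0.56 in amygdala and -1.16 in hippocampus (adjusted p = 0.624), and Ang by 0.69 and 1.42 (adjusted p = 0.652). None of the 3 passed.

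The agreement of probe sets of a gene was read for the 61 of 74 named called genes with more than 1 probe set. Of their 132 other probe sets, 85 (64.4%) had the sign of the called one, where all pairs of probe sets of 1 gene gave 53.1%. A same sign with an unadjusted p under 0.05 was seen in 34 (25.8%, against 5.56% over all pairs). An opposite sign with such a p was seen in 10 of the 132, and its share over all pairs was not counted. In either sign, 8.83% of all probe sets had such a p. Of the 132, 10 were called themselves, where 0.238% of all probe sets were called. By gene, 26 of 61 had another probe set of the same sign at an unadjusted p under 0.05 and 9 had one of the opposite sign. Among probe sets brighter than the median, 61 of 91 (67.0%) shared the sign.

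Some genes were seen by several probe sets. Both probe sets of Cap1 were called, at -1.30 and -1.35. Cd99l2 had 3 called probe sets, at -1.75, -1.15 and -0.46, while its brightest (mean 8.23) was higher in the high line by 0.27 ± 0.06 (SE; adjusted p = 0.074). Ang had 2 called probe sets at 1.05 and 0.98 and the third, not called, at 0.45, all dimmer than the median of all probe sets. Eef1akmt1 had 2 called at 0.71 and 0.64, another at 0.64 and 1 of opposite sign at -0.31. The 4 other genes with 2 called probe sets of 1 direction were chosen by that pattern: Prpf19, a core factor of the spliceosome and a ubiquitin ligase (-0.59 and -0.63), Supt16 (-0.41 and -0.85), the neuron navigator Nav1 (-0.48 and -0.66) and the non-coding snoRNA host Gas5 (-0.33 and -0.46). Prpf19 had the lowest p of all probe sets (adjusted p = 0.000131), yet its brightest probe set, at a mean of 11.79, differed by 0.03 ± 0.04 (SE). Overlapping probes may be shared by probe sets of a gene, which are then not independent readings.

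Other genes were split. Camk2n1 was higher by 1.20 on the called probe set, at a mean of 7.75, and lower on the other, at a mean of 12.71, with a difference of -0.19 ± 0.05 (SE; adjusted p = 0.181). Prune2 differed by -2.94 on 1 probe set, at a mean of 7.98, while the brightest, at 8.52, was higher in the high line by 0.40 ± 0.10 (SE; adjusted p = 0.0999). Ptp4a2 differed by -0.91 on the called probe set, and its 3 others were at -0.05, 0.00 and 0.25. The other 2 probe sets of Atxn1 were at -0.03 and -0.03, and the brighter of these had a mean of 9.48. The other Rgcc probe set was at -0.14, and the 3 others of Rpgrip1 lay near the bottom of the signal range, at means of 4.59 to 4.73. Ildr2, an immunoglobulin-domain receptor, was called in opposite directions, at 0.58 on 1 probe set and -0.66 on another. For further genes, the brighter probe sets showed less than the called one. Those of Mrps15, at means of 8.11 and 8.49 against 5.62, were at -0.09 and -0.05. Those of Scmh1 were at 0.10 and 0.15 and those of Ece1 at 0.001 and -0.19. The brightest was at -0.045 for Urgcp, 0.06 for Ube4b, 0.13 for Mzt1, 0.09 for Pigv and -0.05 for Zmym5. It was at 0.08 for Fut10 and -0.32 for Morn1, each opposite in sign to the called probe set, and that of Morn1 is dim. The others of Hps1, all dimmer, were at -0.04, -0.06 and 0.155. Those of Cdh7 were at -0.40 and 0.37. The other Vps37c probe set, which is dimmer, was at -0.05. For Mcm6 the brightest was at -0.70 and for Tnnt2 at -0.99, neither called. Pam and Shisa4 have a single probe set each. Probe sequences were not at hand, so whether the lines differ in sequence under the probes was not tested. A call is therefore a difference in the signal of a probe set, which need not be one in the amount of the transcript.

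**Figure D3:**
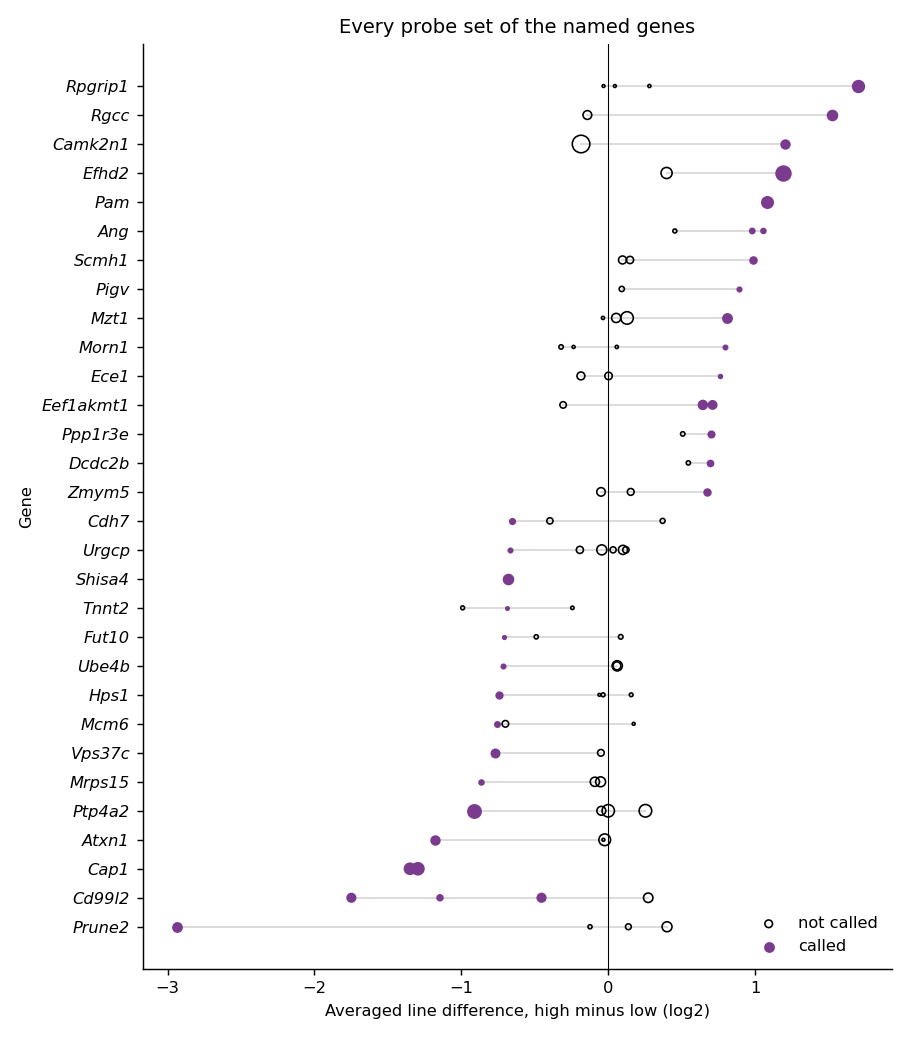
Each row is 1 of the 30 named genes, and each circle is 1 of its probe sets placed on the x axis by the averaged line difference (log2), filled where called and open where not, with larger circles for brighter probe sets. For Cap1 and Ang all probe sets lie on 1 side of 0, whereas for Prune2, Camk2n1, Rgcc and Ptp4a2 the called probe set stands alone.

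Probe sets whose name marks possible cross-hybridisation with other transcripts (ending in x_at) made up 13 of 107 calls (12.1%) and 5.42% of all probe sets. Those shared by transcripts of more than 1 gene (ending in s_at) made up 7 (6.54%) and 4.64%. Among the named genes the called probe set is of the first kind for Ang, Mcm6, Hps1 and Tnnt2 and of the second for Efhd2 and Vps37c, so a related transcript cannot be told apart there. The other called probe set of Ang is of the second kind. Called probe sets were brighter than most: their median level was 7.30 against 5.93 over all, and 87 of 107 were above that median.

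The promoters of 3 genes with at least 2 called probe sets in 1 direction are shown. The called probe sets were higher in the high line for Ang and lower in it for Cd99l2 and Prpf19. The brightest probe set did not go with them for Cd99l2 (0.27) and Prpf19 (0.03). No promoter is shown for Eef1akmt1. Each sequence is RefSeq's, on build GRCm38.p6, and runs from 250 bases before to 50 bases after the annotated start, 5′ to 3′ on the strand of the gene. Capitals mark the CCAAT box (CCAAT) and the GC box (GGGCGG) on either strand, so that they may appear as ATTGG and CCGCCC. Ang lies at chr14:51090827-51091126 on the plus strand, Cd99l2 at chrX:71492800-71493099 on the minus strand and Prpf19, with the first of 2 annotated starts, at chr19:10894981-10895280 on the plus strand.
Ang: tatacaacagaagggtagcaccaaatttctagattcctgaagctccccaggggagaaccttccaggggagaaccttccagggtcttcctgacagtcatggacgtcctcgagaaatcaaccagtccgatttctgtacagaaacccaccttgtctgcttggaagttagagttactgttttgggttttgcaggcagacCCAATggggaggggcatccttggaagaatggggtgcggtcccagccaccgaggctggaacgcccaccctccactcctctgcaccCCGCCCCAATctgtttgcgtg
Cd99l2: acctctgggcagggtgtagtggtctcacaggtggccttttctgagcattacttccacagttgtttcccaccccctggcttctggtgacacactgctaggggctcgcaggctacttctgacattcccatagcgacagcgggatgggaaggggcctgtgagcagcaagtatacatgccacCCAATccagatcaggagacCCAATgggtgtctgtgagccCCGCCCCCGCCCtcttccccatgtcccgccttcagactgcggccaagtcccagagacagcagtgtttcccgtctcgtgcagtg
Prpf19: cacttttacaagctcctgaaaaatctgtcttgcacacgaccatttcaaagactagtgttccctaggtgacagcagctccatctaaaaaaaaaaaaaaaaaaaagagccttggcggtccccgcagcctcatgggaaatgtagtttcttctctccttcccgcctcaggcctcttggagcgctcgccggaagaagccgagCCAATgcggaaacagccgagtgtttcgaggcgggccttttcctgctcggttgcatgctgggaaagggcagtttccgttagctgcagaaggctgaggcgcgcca
The Ang window holds 2 CCAAT boxes and 1 GC box, which shares 1 base with the second CCAAT box, the Cd99l2 window 2 of each, and the Prpf19 window 1 CCAAT box. Over the 32851 promoters of the same length, 37.4% hold a CCAAT box and 35.7% a GC box. The TATA box (TATAAA, 13.6% of promoters), the E-box (CACGTG, 7.15%) and the cAMP response element (TGACGTCA, 1.79%), the motif bound by CREB, are in none of the 3 windows. These are matches of letters in the reference genome, not in these lines.

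The spread within lines differed in step with the direction of the call. For 79 of 107 called probe sets (73.8%), the SD over arrays was larger in the line with the lower mean. Over all probe sets the share was 49.9%, above the median signal 55.5%, and 55.2% among the 3869 with an unadjusted p under 0.05 that were not called. By direction it was 75.9% of the higher calls, against 48.9% of the 2151 higher probe sets among those 3869. For the lower calls it was 71.4%, against 63.2% of the 1718 lower ones, so the lower calls stood closer to their background. Among the 58 higher calls the median SD was 0.31 in the low line and 0.20 in the high line, and in 19 of them the SD of the high line was less than 0.5 of that of the low line. Among the 49 lower calls the median SD was 0.22 in the low line and 0.28 in the high line, and 11 had an SD more than 2 times as large in the high line. Over all probe sets these shares were 2.88% and 5.02%. No test was made of these counts.

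The extremes in each direction were fixed by the ratio of the SDs, pooled over tissues. Rpgrip1 had an SD of 1.03 in the low line and 0.12 in the high line, a ratio of 0.116. Efhd2 followed at 0.91 and 0.24 and a ratio of 0.27, then Pink1, the mitochondrial kinase of familial parkinsonism, at 0.287, the solute carrier Slc35f4 at 0.307 and Ang at 0.311. At the other end Cd99l2 had an SD of 0.14 in the low line and 0.84 in the high line, a ratio of 5.85. Cap1 followed at 3.43, then Stk25, a kinase of the Golgi, at 2.34, Prune2 at 2.24 and Atxn1 at 2.14. The ratio for Cap1 includes the low value of amygdala array 7, and the SD of Cap1 in hippocampus, where that array plays no part, was 0.12 in the low line and 0.34 in the high line. The model assumes 1 variance for all groups, which these probe sets do not have. Without amygdala arrays 7 and 8 the share with the larger SD in the lower line was 72.9% of the 107, and without hippocampus array 7 it was also 72.9%.

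**Figure D4:**
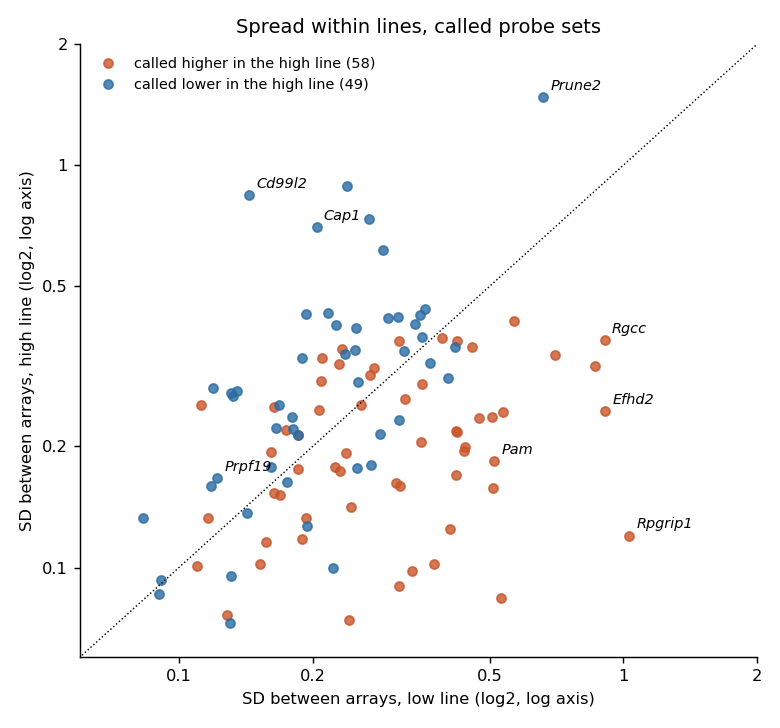
Each point is 1 called probe set, with the SD between arrays of the low line on the x axis and of the high line on the y axis (log2 units, log axes), each pooled over the tissues. Of the points, 44 of 58 probe sets higher in the high line (red) lie below the dotted line of equal SD, and 35 of 49 lower ones (blue) lie above it.

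The called genes were unevenly placed in the genome. Of the 80 called genes, 22 lie on chromosome 4 (2.01% of 1095 measured genes), 19 on chromosome 14 (2.94% of 647), 11 on chromosome 1 (1.03% of 1066) and 7 on chromosome 19 (1.15% of 611). These 4 chromosomes, picked for their counts, hold 59 of 80 called genes (73.8%) and 18.8% of the measured genes with a place. The share over all placed genes was 0.441% and, off these chromosomes, 0.143%, or 21 of 14723. Chromosomes 3, 5, 6, 7, 12, 15, 18 and Y held none.

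Called genes also lay near each other. For 45 of 80 (56.2%), another called gene was among the 10 measured genes on either side, against 6.33% of all placed genes. Without amygdala arrays 7 and 8 the share was 46.0% of the genes then called, and without hippocampus array 7 it was 46.2%. On chromosome 14, Zmym5, Il17d and Eef1akmt1 were neighbours and all higher, as were Rgcc and Kbtbd7, while Rpgrip1 was higher beside Supt16 and Rab2b, which were lower. On chromosome 4, Camk2n1, Pink1 and Ece1 were higher in a row of neighbours and so were Efhd2 and Pdpn, Cap1 and Ppt1 were both lower, and Ptp4a2 was lower beside Dcdc2b and Khdrbs1, which were higher. On chromosome 1, Nav1, Tnnt2 and Shisa4 were neighbours and lower. On chromosome 19, Prpf19 and Vps37c were lower, as were Hps1 and Golga7b, and Prune2 was lower beside Rfk, which was higher. Of 32 such pairs 20 had the same direction. Directions here are those of called probe sets. The brightest probe set of a gene did not always share them, as given above for Camk2n1, Ece1 and Prpf19. The order of genes is that of GRCm38.p6, and the build behind the array annotation is not given in the sources used here.

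**Figure D5:**
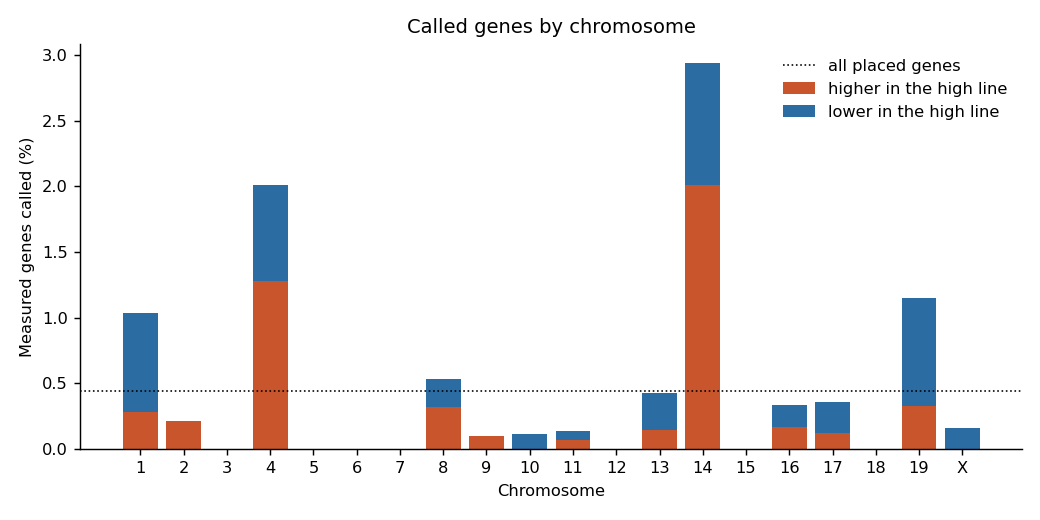
Bars give the percent of measured genes on each chromosome that were called, split into genes higher (red) and lower (blue) in the high line, and the dotted line is the share over all placed genes, 0.441%. Chromosomes 14 and 4 stand highest, at 2.94% and 2.01%, and both hold genes of both directions.

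Lists of genes for the circuits and cells of these tissues were described by their brightest probe set. Over all 18193 genes this called 49 (0.269%), with a median difference of 0.01, and 937 were higher (5.15%) and 593 lower (3.26%) at an unadjusted p under 0.05. Of 93 genes in 6 lists of immediate early genes, ionotropic glutamate receptors, GABA-A receptors and GABA synthesis, plasticity kinases with phosphatases and CREB, corticotropin and glucocorticoid signalling, and monoamine signalling, 0 were called in limma, 3 were higher and 4 lower at an unadjusted p under 0.05, and none had a called probe set of any brightness. At the background share less than 1 call is due in a list of that length. Gabra2, a GABA-A receptor subunit, had a difference of 0.35 ± 0.12 (SE; adjusted p = 0.367), Camkk2, a kinase upstream of other calmodulin kinases, -0.19 ± 0.07 (SE; adjusted p = 0.324), and the immediate early gene Ier2, -0.30 ± 0.12 (SE; adjusted p = 0.446). Neither the 12 phosphodiesterases nor the 18 glyoxalase and antioxidant genes measured had a call.

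Markers of cell types and regions were read in the same way. Of 13 microglial markers 1 was called: C1qc, a chain of complement C1q, was higher by 0.57 ± 0.10 (SE; adjusted p = 0.00847). The other chains were at 0.33 for C1qb and -0.20 for C1qa, neither called, and the summed signal of the list was 4686 to 4819 and 4677 to 5055 in low and high line amygdala and 4271 to 4904 and 4526 to 5196 in hippocampus. Of 15 amygdala markers 1 was called: Lypd1, a regulator of nicotinic receptors, was higher by 0.56 ± 0.08 (SE; adjusted p = 0.00298), though its other probe set was at -0.22. Of 17 hippocampus markers 0 were called by the brightest probe set and 4 were lower at an unadjusted p under 0.05, among them Dsp (-0.32), Hpca (-0.22) and Spink8 (-0.28). Hpca, the calcium sensor hippocalcin, was called on another probe set, at -0.52. The summed signal of the hippocampus markers did not overlap between lines in hippocampus, at 14210 to 15480 in the low line and 12760 to 13970 in the high line. Of single probe sets, 0.637% were apart in hippocampus, and the 18S control was apart there as well. The median averaged difference of these markers was -0.042. The summed signal of 12 meningeal fibroblast markers, which a dissection can carry along, was 1611 to 2265 in the low line and 2252 to 2674 in the high line of hippocampus. In amygdala it was 838 to 1600 in the low line and 649 to 1180 in the high line. The part of these sums in the calls was not tested. Pan-neuronal (10 measured), astrocyte (12), oligodendrocyte (11), endothelial (11), choroid plexus (10), red blood cell (4) and striatal (12) markers had 0 calls, and choroid plexus sums ran from 815 to 16830 over all arrays.

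A list of 20 genes known to differ in brain between the inbred strains C57BL/6J and DBA/2J was made with earlier results of these data known and cannot support anything by itself. Of the 17 measured, 3 were called: Pam, Cap1 and Rfk, the riboflavin kinase, which was higher by 0.24 ± 0.05 (SE; adjusted p = 0.0437). The labels do not name the strains that founded these lines.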

How the data were processed

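The deposited values are linear array intensities, 1 per probe set and array, from Affymetrix mouse arrays. No source used here names the signal algorithm, the software or the tissue handling. The authors had scaled the deposited arrays: with 2% of probe sets cut at each end, every array's mean is 150. Values were taken as log2(value + 16), and the 4 group means of 24 arrays were fitted with limma 3.58.1 in R 4.3.3 (lmFit, eBayes), with Benjamini-Hochberg adjustment over 45037 probe sets and a threshold of 0.05. The number of arrays and their spread limit the precision. Nothing in the labels says that arrays are separate animals, so the spread may be partly technical. Groups came from the sample descriptions.

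Per the platform annotation, 34945 probe sets have 1 gene symbol, 932 several and 9160 none, and 34741 symbols were updated through Entrez identifiers with RefSeq's GRCm38.p6 table. Genes named are those with 1 symbol that is not a clone or gene-model name, up to 15 called genes per direction by size, each represented by the called probe set with the lowest p. The members, lists and tests were chosen with earlier results of these data known. The main fit was tried on simulated arrays with independent noise and 1 variance per probe set in all groups. Unequal variances, as seen in some called probe sets, were not simulated. Same-numbered arrays of the tissues correlated at -0.0545 to 0.0454 in their deviations from the group means, and 1 of 12 matched its own number best. This check cannot decide whether a number marks 1 animal. The labels do not say so either, and numbers were not used as pairs in the main fit. Alternatives are given at the end.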

Additional observations from a re-analysis of the deposited data

Results flagged for a closer look

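Among the 30 named genes, 120 groups of 6 arrays were examined for a single array far from the others, by Dixon's ratio of the gap to the whole range. Chance alone marks about 1 in 20 groups, and 9 of 120 were marked. In high line amygdala, array 7 was low for Cap1, at 6.74 against 8.51 to 9.26 on the others, and for Rpgrip1, at 10.39 against 10.56 to 10.65. Array 11 of the same group was high for Tnnt2, at 5.57 against 4.14 to 4.46. In high line hippocampus, array 7 was low for Rgcc, at 8.50 against 9.29 to 9.58. In low line amygdala, array 4 was low for Prune2, at 8.16 against 9.50 to 10.15, array 1 was low for Vps37c, at 7.43 against 7.86 to 8.11, and array 2 was high for Fut10, at 5.73 against 5.15 to 5.29. In low line hippocampus, array 4 was low for Fut10, at 4.34 against 5.20 to 5.52, and array 6 was low for Cdh7, at 4.75 against 5.65 to 5.90. Amygdala array 7 and hippocampus array 7 are among the arrays in doubt, and of the 9 values 3 are theirs. Of these genes, Cap1, Prune2 and Rgcc kept their call in all 36 alternative analyses, and Fut10 lost it in 26 of 35, Tnnt2 in 23 of 35 and Cdh7 in 12 of 36.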

How the results depend on the processing

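No named gene changed direction in any alternative analysis. The total of 107 calls (58 higher, 49 lower) rose to 165 (79 lower) with log2(value + 64) and to 188 (93 higher, 95 lower) with an intensity trend in the prior variance, and the lower calls to 77 without the 40% of probe sets of lowest mean signal, where fewer are tested. It fell to 63 (33 and 30) with the actin ratio as a covariate and to 62 (31 higher, 31 lower) without amygdala arrays 7 and 8, where fewer arrays are fitted. Leaving out 1 array at a time gave 72 to 114 in all, 34 to 60 higher and 35 to 54 lower. With the array number as a random replicate block the count was 106, all among the 107, and Efhd2 was the only named gene to lose its call. With a replicate block made by averaging the tissues per array number, which leaves 12 values, it was 34 (17 higher, 17 lower), 29 of them among the 107, and 20 of the 30 named genes lost their call, among them Rpgrip1, Scmh1, Pigv, Mzt1, Eef1akmt1, Ptp4a2, Vps37c, Hps1 and Urgcp. The check above cannot decide whether a number marks 1 animal, since tissues of 1 animal need not deviate alike over all probe sets. Among the 30 named genes the correlation of deviations by number ran from -0.6 (Rgcc) to 0.549 (Pam). The fall to 34 calls is therefore a limit on the results. Other totals were 76 with log2(value + 1), 108 after quantile normalization, 105 after median centring, 120 with array weights, 107 with the 18S covariate and 94 without hippocampus array 7. The share of probe sets chosen in amygdala that kept their sign in hippocampus was 63.9%, and 57.6% or 74.8% at looser or stricter choice and 67.4% without amygdala arrays 7 and 8, and that chosen in hippocampus was 59.1%, and 54.8% or 66.9%. The agreement of probe sets was 59.8% without amygdala arrays 7 and 8 and 61.4% without hippocampus array 7. Where no cause is stated, the cause was not tested. The analyses without these arrays of shares other than the calls were added after the data were seen. Named genes that lost their call most often were Efhd2, Fut10, Dcdc2b, Tnnt2, Ube4b, Camk2n1, Shisa4, Ece1 and Cdh7; Pigv, Morn1, Ece1, Ube4b, Fut10, Tnnt2 and Urgcp are too dim to be tested under the filter on signal.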
